A study of Mus musculus with 7 samples.

Results

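The miR-130 and miR-301 family was followed through sorted cells of the embryonic mouse spinal cord by small RNA sequencing. The members were taken by name, as the rows of both deposited tables for mmu-miR-130a-3p, mmu-miR-130b-3p, mmu-miR-130b-5p, mmu-miR-301a-3p and mmu-miR-301b-3p (written below without the mmu prefix for mouse), which makes 5 of the 1908 mature miRNAs listed. At E10.5, a mid-gestation embryonic stage, the GFP-positive motoneurons of Hb9::gfp embryos gave 2 libraries, and the GFP-negative fraction of the same line, described as spinal cells other than motoneurons, gave 2 more. At the later stage E12.5, motoneurons of Hb9::gfp embryos, V2a interneurons of Chx10::cre;Rosa26::LSL::tdTomato embryos and V3 interneurons of Sim1::cre;Rosa26::LSL::tdTomato embryos gave 1 library each. In the reporter lines GFP follows the promoter of Hb9, and tdTomato marks any cell in which Chx10 or Sim1 has driven Cre, so each population is as pure as its driver and its sort.

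MicroRNAs are cut from hairpin precursors, and either arm of a hairpin, named 5p or 3p, can be loaded onto an Argonaute protein. The loaded strand pairs with messenger RNAs mainly through its seed, a short stretch near its 5′ end, and lowers their stability and translation. Members of the family are known from human endothelial cells, where miR-130a represses homeobox genes that restrain vessel growth, and from fat cell formation, where miR-130 represses PPARG, its master regulator.

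The sequences are shown because they define the family and because the 2 arms of mir-130b stood at very different levels. They are the RefSeq mature sequences of build GRCm38.p6, written 5′ to 3′ with the seed, bases 2 to 8, in capitals. The first 3 are members of the 3p arm, the next is the member of the 5p arm, and the others are 5p partners of miR-301 hairpins.
miR-130a-3p: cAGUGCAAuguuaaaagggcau
miR-130b-3p: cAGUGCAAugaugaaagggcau
miR-301a-3p: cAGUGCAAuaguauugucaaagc
miR-130b-5p: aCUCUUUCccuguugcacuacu
miR-301a-5p: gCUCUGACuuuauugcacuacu
miR-301b-5p: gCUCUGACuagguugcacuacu
The 3p members printed here hold the seed AGUGCAA, which is found in 7 of the 1603 listed miRNAs that have a mature sequence (0.437%). miR-301b-3p had no mature entry in the RefSeq set used, so it is not printed and its seed is not in this count. miR-130a-3p and miR-130b-3p are identical at 20 of 22 bases and differ by U11A and A13G, counted from the 5′ end with the base of miR-130a-3p first. miR-301a-3p shares its first 9 bases with both. miR-130b-5p has another seed, CUCUUUC, held by 2 listed miRNAs, itself and miR-7014-3p. Against miR-301b-5p, miR-130b-5p shares the last 11 bases but not the seed.

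The members come from 4 hairpins on 3 chromosomes. Mir130a lies at chr2:84741115-84741178 on the minus strand and overlaps no gene of the GENCODE M21 annotation. Mir130b (chr16:17124061-17124142) and Mir301b (chr16:17124400-17124496) lie 257 bases apart on the minus strand, both intronic in the protein-coding gene 2610318N02Rik, which is transcribed from the same strand. Mir301, which gives miR-301a, lies at chr11:87113004-87113089 on the plus strand. It sits within Ska2, a gene of the spindle and kinetochore machinery transcribed from the same strand, and overlaps none of its exons. The Mir130b hairpin is printed with both mature arms in capitals, 5p first, since both are members.
Mir130b: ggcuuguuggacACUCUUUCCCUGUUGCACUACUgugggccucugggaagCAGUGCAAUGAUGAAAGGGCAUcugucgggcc

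Depth was 493235 to 802743 reads a library at E10.5 and about 3603500 to 4605324 at E12.5. A level at E10.5 is in RPM, the reads of a miRNA scaled to a library total of 1000000, and one at E12.5 in TPM, the same kind of share after division by length. The mature lengths of the members printed above are 22 or 23 bases. miR-218-5p, the motoneuron marker, stood at 177885 and 200305 RPM in E10.5 motoneurons, against 6623 and 7315 RPM in GFP-negative cells. At E12.5 motoneurons had 104198 TPM of it, V2a 7558 TPM and V3 7282 TPM. The GFP-negative fraction held far more of the 10 mesenchymal marker miRNAs, whose sum was 1571 and 424 RPM in motoneurons, against 81413 and 94290 RPM in GFP-negative cells, and all 10 passed limma's threshold as lower in motoneurons. The sum of the 2 endothelial markers was 508 and 295 RPM in motoneurons, against 977 and 676 RPM in GFP-negative cells. The muscle sum was 355 and 130 RPM, against 4192 and 3796 RPM. The sensory neuron sum was 1971 and 2325 RPM, against 9171 and 9535 RPM. The progenitor and proliferation-linked sum was 34916.5 and 30901.8 RPM, against 63284.2 and 67141.8 RPM, with 2 miRNAs called lower and 1 higher. The list called neuronal held miR-9-5p and miR-124-3p. Its sum went the other way, at 25031 and 31314 RPM in motoneurons, against 23568 and 19263 RPM. It was nearly all miR-9-5p, at 24587 and 31008 RPM in motoneurons, against 23473 and 19189 RPM. miR-124-3p stood at 445 and 306 RPM in motoneurons, against 95.2 and 74.3 RPM, so the sum is not read as neuronal content. In such bulk libraries, fewer cells of a type cannot be told apart from less RNA per cell.

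miR-130b-5p was by far the most abundant member in every library. At E10.5 it stood at 2182.5 and 2238.28 RPM in motoneurons, against 1315.79 and 1800.84 RPM in GFP-negative cells. Both motoneuron libraries lay above both GFP-negative libraries, and the GFP-negative libraries lay far apart. The means were 2210 ± 39.4 RPM in motoneurons and 1558 ± 343 RPM in GFP-negative cells (SD, n = 2 each). The log2 fold change was 0.52 (SE 0.20, 95% interval 0.05 to 0.99), which missed the threshold after adjustment over all miRNAs (limma adjusted p = 0.0719). The median log2 fold change of all 492 tested miRNAs was -0.34, so miR-130b-5p lay 0.86 above it. The call depended on the scaling, with limma adjusted p from 0.00516 to 0.160 among the scalings run. Median-of-ratios factors gave 0.80 (limma adjusted p = 0.0109), while totals without the mesenchymal and muscle markers gave 0.38 (limma adjusted p = 0.160). It also turned on a single GFP-negative library, with 0.75 without replicate 2 (limma adjusted p = 0.0126) and 0.30 without replicate 1 (limma adjusted p = 0.307).

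None of the 4 members of the 3p arm passed the test at E10.5. miR-130a-3p stood at 190.06 and 148.0 RPM in motoneurons, against 222.51 and 204.22 RPM in GFP-negative cells. miR-130b-3p stood at 143.79 and 139.89 RPM in motoneurons, against 204.51 and 194.94 RPM in GFP-negative cells. miR-301a-3p stood at 56.06 and 40.55 RPM in motoneurons, against 77.17 and 64.98 RPM in GFP-negative cells. For these miRNAs both motoneuron libraries lay below both GFP-negative libraries. The log2 fold changes were -0.34 for miR-130a-3p (SE 0.25, limma adjusted p = 0.311), -0.49 for miR-130b-3p (SE 0.24, limma adjusted p = 0.141) and -0.56 for miR-301a-3p (SE 0.34, limma adjusted p = 0.225). The -0.34 of miR-130a-3p was close to the median of all tested miRNAs, and its sign turned under quantile normalization (0.13) and with totals that leave out the 5 most abundant miRNAs (0.03).

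miR-301b-3p was the least abundant member and its motoneuron replicates disagreed. It stood at 33.63 and 6.08 RPM in motoneurons, the second being 3 reads, against 20.58 and 24.13 RPM in GFP-negative cells. The motoneuron libraries lay on either side of the GFP-negative ones. Its fitted log2 difference was -0.57 (SE 0.74, 95% interval -2.33 to 1.18, limma adjusted p = 0.576). Without motoneuron replicate 1 it was -1.72 (limma adjusted p = 0.0435), and without motoneuron replicate 2 it was 0.57 (limma adjusted p = 0.329), so no direction is given for it. In both E10.5 groups the order of mean levels from high to low was miR-130b-5p, miR-130a-3p, miR-130b-3p, miR-301a-3p and miR-301b-3p. In motoneurons miR-130a-3p (169 ± 29.7 RPM) and miR-130b-3p (142 ± 2.76 RPM, SD, n = 2 each), both 22 bases long, differed by less than the SD of miR-130a-3p.

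**Figure D1:**
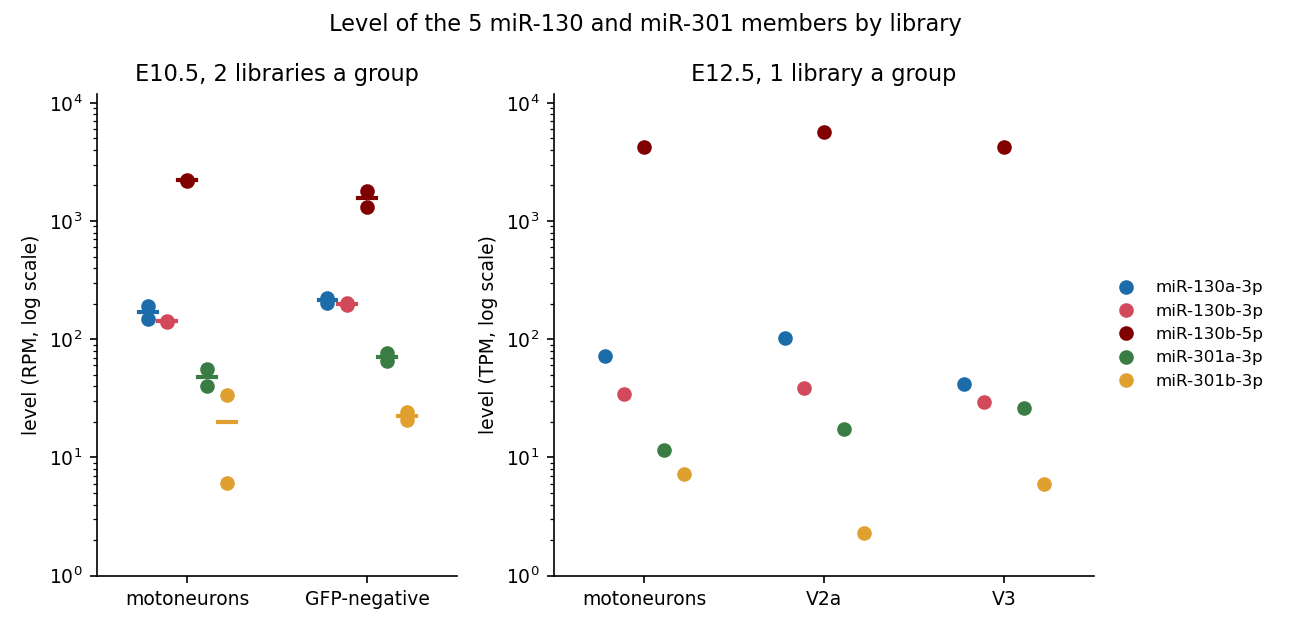
Level of each member in every library on a log scale, in RPM at E10.5 (left, with a bar at the mean of the 2 libraries of a group) and in TPM at E12.5 (right, 1 library a group). miR-130b-5p sits above the 4 members of the 3p arm in all 7 libraries, and miR-301b-3p is lowest in each, with motoneuron replicates at 33.63 and 6.08 RPM.

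In all, 0 of the 5 members passed the limma threshold at E10.5 in either direction, and 1 passed an unadjusted limma p of 0.05. Of all 492 tested miRNAs, 259 passed that unadjusted p, so 1 of 5 does not stand out. By the adjusted threshold, 11.6% of all 492 tested miRNAs were higher in motoneurons and 30.7% lower, 42.3% in total. This split of 57 higher and 151 lower depended on the scaling, with 85 and 118 under median-of-ratios factors, 81 and 129 under TMM factors, 105 and 116 with totals without the 5 most abundant miRNAs and 110 and 98 under quantile normalization. The groups did not overlap for 4 of the 5 members, 1 of them higher and 3 lower in motoneurons. Among all tested miRNAs this held for 73.6%, of which 25% were higher and 48.6% lower as shares of all tested, so the share among the members is close to the background. The median log2 fold change was -0.49 over the 5 members, against -0.34 over all tested miRNAs.

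**Figure D2:**
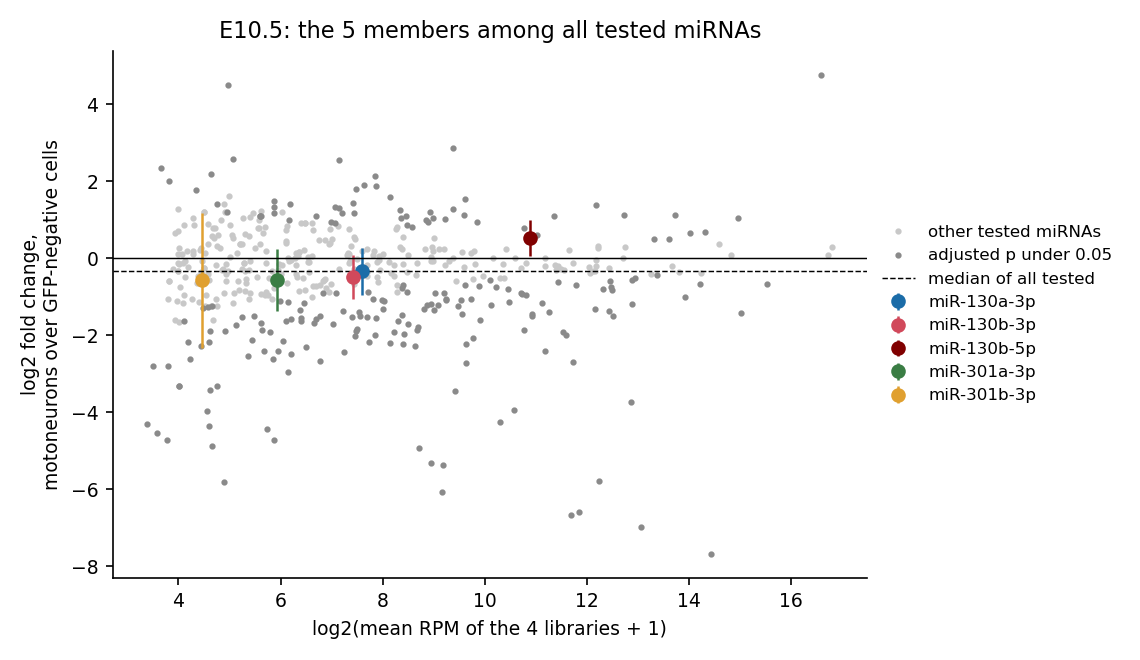
Log2 fold change of E10.5 motoneurons over GFP-negative cells against mean level, log2(mean RPM + 1), for all 492 tested miRNAs (grey, darker where limma's adjusted p is under 0.05) and the 5 members (coloured, with 95% intervals). The dashed line is the median of all tested miRNAs, -0.34. miR-130b-5p lies above it at 0.52 and the 4 members of the 3p arm lie between -0.34 and -0.57.

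The partner arms of these hairpins were measured as well. miR-301b-5p, whose hairpin neighbours Mir130b, stood at 145.75 and 148.0 RPM in motoneurons, against 78.46 and 139.24 RPM in GFP-negative cells. Its motoneuron libraries lay above both GFP-negative libraries, as those of miR-130b-5p did, and the fitted log2 difference was 0.49 (SE 0.34, limma adjusted p = 0.287). It was 0.08 without GFP-negative replicate 1 and 0.90 without replicate 2, and passed the threshold only under quantile normalization among the alternatives run (0.94, limma adjusted p = 0.0481). miR-301a-5p stood at 82.22 and 107.45 RPM in motoneurons, against 126.05 and 148.52 RPM in GFP-negative cells. Its motoneuron libraries lay below both GFP-negative libraries, and the fitted log2 difference was -0.54 (SE 0.29, limma adjusted p = 0.177). miR-130a-5p was below the abundance filter, at 1.86 to 5.14 RPM in the 4 libraries, which is 1 to 4 reads.

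The other listed miRNAs with the AGUGCAA seed had almost no reads. miR-130c, miR-6341, miR-6389 and miR-721 had 0 reads in all 4 E10.5 libraries, where a count of 0 allows 3.74 to 6.08 RPM. At E12.5 only single reads appeared, of miR-130c (0.281 TPM) and miR-6389 (0.296 TPM), both in motoneurons. miR-148a-3p, miR-148b-3p and miR-152-3p carry the seed CAGUGCA, which equals bases 1 to 7 of miR-130a-3p, the same letters shifted by 1 base. At E10.5, 2 of these 3 were lower in motoneurons, miR-148a-3p with a log2 fold change of -1.31 (limma adjusted p = 0.00089) and miR-152-3p with -3.44 (limma adjusted p = 0.000166). miR-148b-3p had -0.29 (limma adjusted p = 0.259). miR-148a-3p and miR-148b-3p share reads in the deposited files, so their separate values are uncertain. With rows that share reads summed, the log2 fold change of their sum was -0.89 (limma adjusted p = 0.00737). Over all tested miRNAs 30.7% were lower.

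mir-130b was read mostly from its 5p arm. The ratio of 5p over 3p levels was 15.2 and 16.0 in E10.5 motoneurons, against 6.43 and 9.24 in GFP-negative cells, with means of 15.6 ± 0.58 and 7.84 ± 1.98 (SD, n = 2 each). Both motoneuron libraries lay above both GFP-negative libraries, but how many other hairpins had groups set apart in this way was not counted. Of the reads on either arm, 93.8% and 94.1% were 5p in motoneurons, against 86.5% and 90.2% in GFP-negative cells. A ratio within a library does not depend on its scaling. The log2 ratio was higher by 1.01 in motoneurons (SE 0.31, 95% interval 0.26 to 1.76), but this missed the threshold over 75 hairpins with both arms measured (limma adjusted p = 0.149, and 0.234 to 0.769 in its alternatives). Of those hairpins 2.67% passed, and mir-130b ranked 8 of 75 by p.

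At E12.5 the 3p arm of mir-130b was a small remainder. The ratio of 5p over 3p was 123 in motoneurons, 146 in V2a and 143 in V3. The 5p share of reads was 99.2% in motoneurons (95% Wilson interval 99.0 to 99.3), 99.3% in V2a (99.2 to 99.4) and 99.3% in V3 (99.2 to 99.4). The 3 populations were close to each other and all lay above the 4 E10.5 libraries. Stage, sequencing run and the separate processing of the tables cannot be told apart here. Hairpins were ranked by this ratio, with 1 added to each level, where both arms were listed and shared no reads with other rows. Their summed level had to reach 15.2 RPM or 10 TPM in the library, so an arm could have 0 reads. Among these, mir-130b ranked 46 of 189 and 52 of 183 in E10.5 motoneurons, 62 of 190 and 62 of 193 in GFP-negative cells. It ranked 21 of 206 in E12.5 motoneurons, 17 of 242 in V2a and 18 of 200 in V3.

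Of the remaining hairpins, only mir-130a leaned to the 3p arm. mir-130a was read from the 3p arm in every library, with a 3p level 38.2- to 110-fold above 5p at E10.5, and with 42.8-fold in E12.5 motoneurons and 38.7-fold in V2a. V3 had 0 reads of miR-130a-5p against 173 of miR-130a-3p, which allows a 5p level of up to 0.721 TPM. mir-301a leaned to 5p, with ratios of 1.47 and 2.65 in E10.5 motoneurons, against 1.63 and 2.29 in GFP-negative cells, and overlapping groups. At E12.5 its ratio was 4.13 in motoneurons, 2.97 in V2a and 3.74 in V3. mir-301b leaned to 5p too, with 4.33 and 24.3 in E10.5 motoneurons, against 3.81 and 5.77 in GFP-negative cells, where the 24.3 rests on the 3 reads of miR-301b-3p. At E12.5 it was 15.2 in motoneurons, 55.1 in V2a and 17.9 in V3.

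**Figure D3:**
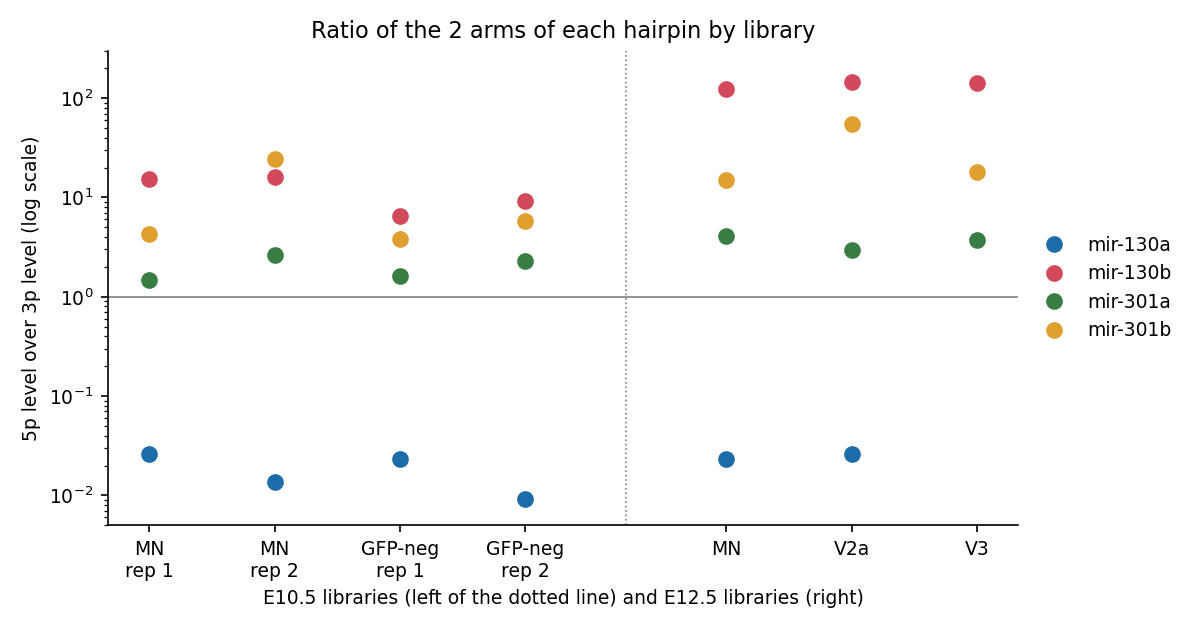
Ratio of the 5p over the 3p level of each hairpin by library, on a log scale, with the line at 1 marking equal arms. mir-130b lies at 15.2 and 16.0 in E10.5 motoneurons, at 6.43 and 9.24 in GFP-negative cells and at 123 to 146 at E12.5, while mir-130a lies far below 1 wherever its 5p arm was read (0 reads in V3, not drawn).

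The members of the 3p arm were also described by their make-up, as shares of the summed level of the 4 members, which again need no scaling. The sum was 424 and 335 RPM in E10.5 motoneurons, against 525 and 488 RPM in GFP-negative cells. miR-130a-3p held 44.9% and 44.2% of it in motoneurons, against 42.4% and 41.8% in GFP-negative cells. miR-130b-3p held 33.9% and 41.8% in motoneurons, against 39.0% and 39.9% in GFP-negative cells. miR-301a-3p held 12.1% to 14.7% in the 4 libraries and miR-301b-3p 1.82% to 7.94%. The make-up was thus much alike in both E10.5 groups, and the motoneuron replicates differed from each other by more than the groups did for miR-130b-3p and miR-301b-3p.

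At E12.5 the make-up differed between the populations. The sum was 125 TPM in motoneurons, 162 TPM in V2a and 103 TPM in V3. miR-130a-3p held 57.6% in motoneurons, 63.7% in V2a and 40.3% in V3. miR-301a-3p held 9.23% in motoneurons, 10.8% in V2a and 25.2% in V3. V3 thus had the lowest share of miR-130a-3p and the highest of miR-301a-3p, with 1 library behind each value. With miR-130b-5p added, the 5 members made 0.261% and 0.257% of the library's summed level in E10.5 motoneurons, 0.184% and 0.229% in GFP-negative cells, and 0.434% in E12.5 motoneurons, 0.585% in V2a and 0.432% in V3.

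**Figure D4:**
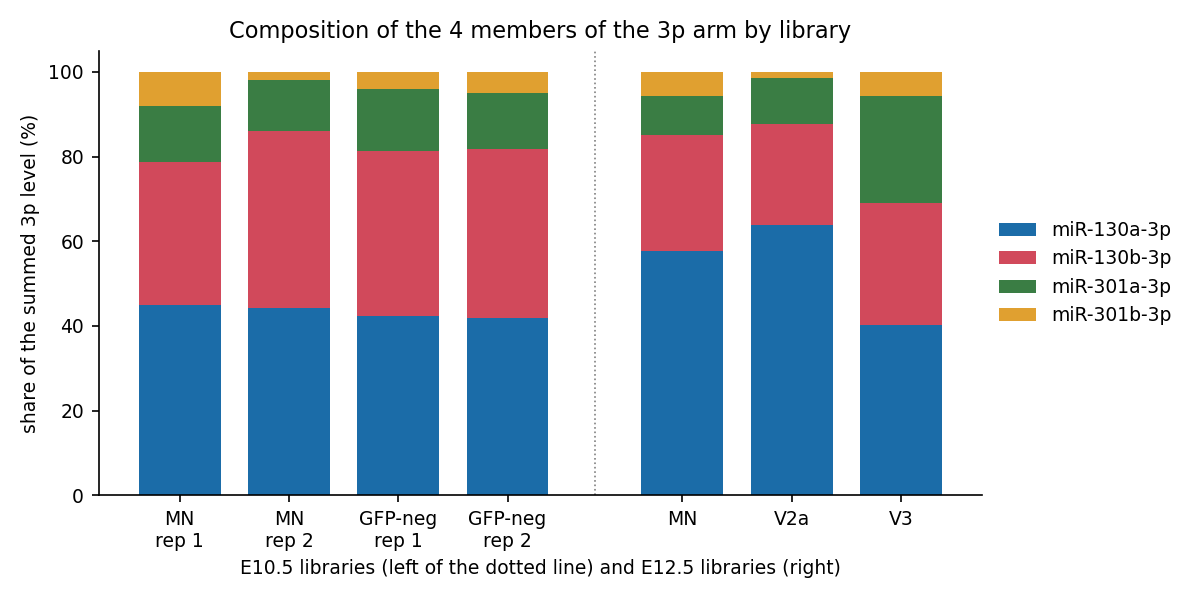
Share of each 3p member in the summed level of the 4, as stacked bars by library, left of the dotted line for E10.5 (RPM) and right of it for E12.5 (TPM). The 4 E10.5 bars are alike, with miR-130a-3p at 41.8% to 44.9%, and the V3 bar stands out by its 25.2% of miR-301a-3p.

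At E12.5 the populations have no replicates, so ratios are given with 95% intervals that cover counting error only. miR-130b-5p stood at 4216 TPM in motoneurons, 5693 TPM in V2a and 4218 TPM in V3, and it was at rank 28 of all miRNAs in motoneurons, rank 20 in V2a and rank 26 in V3. V2a was high, and motoneurons and V3 were indistinguishable by counting error. The ratio was 0.741 for motoneurons over V2a (0.726 to 0.756), 0.999 for motoneurons over V3 (0.978 to 1.02) and 1.35 for V2a over V3 (1.32 to 1.38). With median-of-ratios factors the log2 ratio of V2a over V3 changed sign, at -0.06, and that of motoneurons over V3 was -0.24, so the order of the 3 levels depends on the scaling.

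Among the 3p members, miR-130a-3p and miR-301a-3p were ordered differently across the populations. miR-130a-3p stood at 72.3 TPM in motoneurons, 103.2 TPM in V2a and 41.6 TPM in V3, so it was highest in V2a and lowest in V3. Its ratio was 0.701 for motoneurons over V2a (0.599 to 0.818), 1.74 for motoneurons over V3 (1.43 to 2.12) and 2.48 for V2a over V3 (2.08 to 2.97). miR-301a-3p stood at 11.6 TPM in motoneurons, 17.5 TPM in V2a and 26.0 TPM in V3, so V3 was highest. Its ratio was 0.663 for motoneurons over V2a (0.448 to 0.971), 0.445 for motoneurons over V3 (0.306 to 0.638) and 0.672 for V2a over V3 (0.499 to 0.900). Its partner miR-301a-5p, from the other arm of the hairpin, stood at 47.8 TPM in motoneurons, 51.8 TPM in V2a and 97.4 TPM in V3, again highest in V3. The signs of these miR-130a-3p and miR-301a-3p ratios held with median-of-ratios and with TMM factors.

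miR-130b-3p varied least of the 3p members, at 34.3 TPM in motoneurons, 38.9 TPM in V2a and 29.6 TPM in V3. Its interval included 1 for motoneurons over V2a (0.694 to 1.12) and for motoneurons over V3 (0.896 to 1.50), and ran from 1.04 to 1.67 for V2a over V3. Its sign turned in all 3 comparisons with median-of-ratios factors, so its levels were not told apart. miR-301b-3p stood at 7.26 TPM in motoneurons, 2.32 TPM in V2a and 5.95 TPM in V3, about 26, 10 and 25 reads, which is below the filter of 10 TPM. Its ratio for motoneurons over V2a was 3.13 with a wide interval (1.53 to 7.64), and 0.389 for V2a over V3 (0.159 to 0.798).

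Of the 4 members that passed the filter, 0 were at least 2-fold higher or lower in motoneurons over V2a, where 14.5% of 523 miRNAs were higher and 21.8% lower. In motoneurons over V3, 0 were higher and 1, miR-301a-3p, was lower, where 26.4% of all were higher and 12.4% lower. In V2a over V3, 1 was higher, miR-130a-3p, and 0 lower, where 26% of all were higher and 7.27% lower. The median log2 ratio of these 4 was -0.47 for motoneurons over V2a, 0.10 for motoneurons over V3 and 0.41 for V2a over V3, against -0.16, 0.25 and 0.48 over all 523 in the same order. The 3 comparisons share libraries and are not independent of each other. The mesenchymal marker sum was 199 TPM in motoneurons, 249 TPM in V2a and 310 TPM in V3, the endothelial sum was 177 TPM in motoneurons, 405 TPM in V2a and 174 TPM in V3, and the muscle sum was 126 TPM in motoneurons, 221 TPM in V2a and 63.0 TPM in V3. The endothelial and muscle sums were thus highest in V2a, as miR-130a-3p was. The sum of the 3 neural progenitor and proliferation-linked miRNAs was 3130 TPM in motoneurons, 4701 TPM in V2a and 6741 TPM in V3. That of the 2 miRNAs listed as neuronal was 73435 TPM in motoneurons, 74078 TPM in V2a and 160392 TPM in V3. The sensory neuron sum was 108 TPM in motoneurons, 181 TPM in V2a and 193 TPM in V3. The progenitor and proliferation-linked, neuronal-list, sensory neuron and mesenchymal sums were all highest in V3, as miR-301a-3p was. The 2 miRNAs listed as neuronal were not separated here, so their sum is not read as neuronal content. The part of these cell types in the members' levels was not tested.

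**Figure D5:**
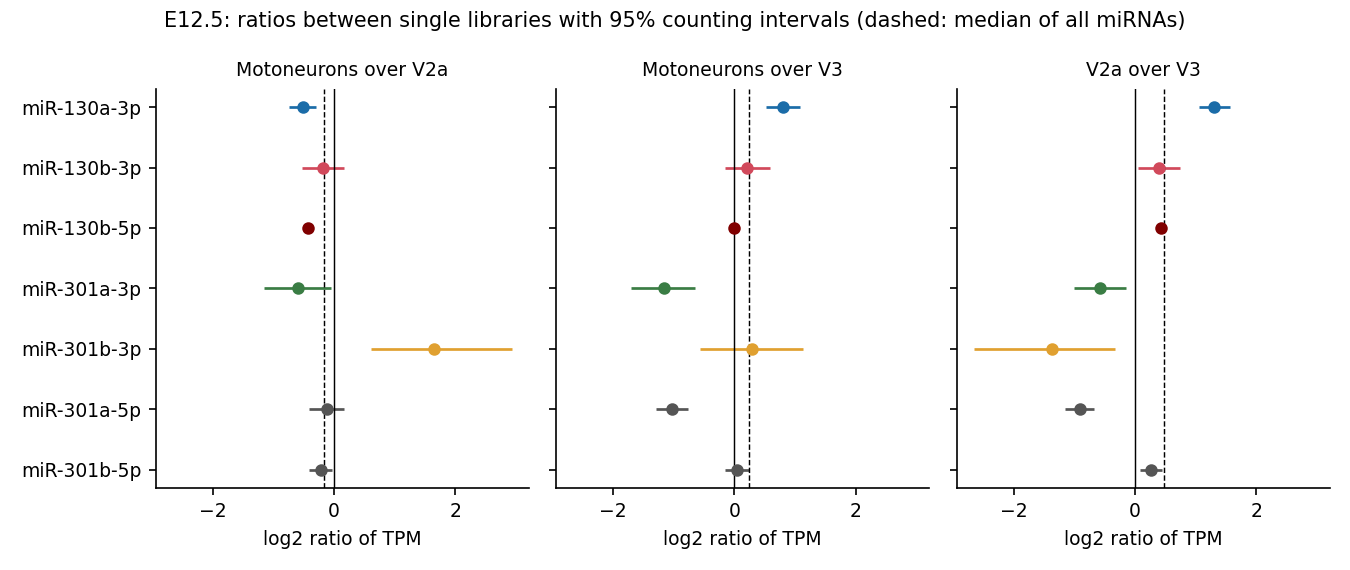
Log2 ratio of TPM between single E12.5 libraries for the 5 members and 2 partner arms, with 95% counting intervals and a dashed line at the median of all miRNAs. miR-130a-3p lies to the right in both comparisons over V3, while miR-301a-3p and miR-301a-5p lie to the left there.

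The miRNAs most like each member over the 7 libraries were found by Euclidean distance of log2(level + 1), centred within each table, among 361 miRNAs that passed both filters. For miR-130b-5p the nearest was miR-301b-5p of the neighbouring hairpin, at a distance of 0.31, followed by miR-1964-3p (0.39) and miR-1198-5p (0.41), against a median of 1.49 over all candidates. Its own 3p partner miR-130b-3p was at 1.10, at rank 107. For miR-130b-3p the nearest were miR-25-3p (0.22), miR-30a-5p (0.25) and miR-134-5p (0.26). For miR-130a-3p they were miR-486-3p (0.34), miR-151-5p (0.34) and miR-18a-3p (0.55), with miR-130b-3p at 0.70 and rank 19. For miR-301a-3p the nearest, miR-3473b, lay at 0.60, followed by miR-425-5p (0.62) and miR-615-5p (0.65). miR-486-3p, miR-30a-5p and miR-3473b share reads with other rows in the deposited files, so their values are uncertain. miR-301b-3p missed the E12.5 filter and was not compared.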

How the data were processed

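Small RNA libraries of cells sorted from papain-dissociated spinal cords were made with NEBNext kits, per the labels' protocols. The submitters' processing notes name Bowtie2, and the sources used here give neither the build nor the counting program. The authors deposited RPM values for the 4 E10.5 libraries, together with their own group means, which matched the library columns to within 0.005 RPM. The E12.5 table names no unit. Its deposited values were read as FPKM, from the steps of low values, and rescaled to a sum of 1000000 (TPM). The tables were scaled separately, so tests stay within one.

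Reads were estimated from the value of 1 read, at the mature length or 22 nt for FPKM. All 5 members sit in rows that share no reads with others. Intervals and floors of 3 reads hold for counting error alone, because PCR copies do not count molecules independently.

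E10.5 motoneurons were compared with GFP-negative cells by limma 3.58.1 in R 4.3.3 on log2(RPM + 1), with a mean-variance trend, two-sided, and Benjamini-Hochberg adjustment (threshold 0.05), over miRNAs that reached 15.2 RPM, 10 reads at median depth, in 2 or more libraries. This scale understates changes of low miRNAs. E12.5 groups of 1 library got no test: 2-fold on log2(TPM + 1) was counted among miRNAs at 10 TPM or more, with exact conditional binomial 95% intervals of read ratios. The test of arm ratios was added after the data were seen. It used limma on the difference of log2 levels.

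Named miRNAs were the members, their partner arms, same-seed miRNAs, the miR-148 and miR-152 list and the 3 nearest of each member by pattern. Also named were miR-218-5p and the miRNAs of the neuronal list. The members and lists were chosen with earlier results of these data known. Replicates are not described as separate litters, so p-values measure only a spread between libraries that may be technical. Alternatives covered the pseudocount, filters, scalings, shared rows, the trend, a replicate block and leaving out each library.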

Additional observations from a re-analysis of the deposited data

How the results depend on the processing

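With 2 libraries a group at E10.5 and 1 at E12.5, and under 200 reads for most values of the 3p members, depth and library number limit how small a change can be detected. At E10.5 the count of members higher in motoneurons was 0, but 1 (miR-130b-5p) with median-of-ratios, TMM and quantile scaling, with totals without the 5 most abundant miRNAs and with the replicate block (limma adjusted p = 0.0449 for miR-130b-5p). Leaving out each library in turn gave 0 to 1 member higher, 0 to 1 lower, 27 to 48 miRNAs higher and 106 to 125 lower. Over all miRNAs, 34 were higher with only all-zero rows removed, 105 with totals without the 5 most abundant miRNAs and 110 with quantile normalization, which gave 98 lower, against 57 higher and 151 lower. The median log2 fold change of all miRNAs moved to -0.07 with median-of-ratios, -0.14 with TMM, 0.10 with quantile normalization and 0.03 with totals without the 5 most abundant. The causes were not tested.

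The replicate numbers are shared between the E10.5 groups. Across the tested miRNAs, the log2 difference between replicates in motoneurons correlated at 0.261 with that in GFP-negative cells. This value rests on 2 libraries a group, and the labels do not say whether a number marks a shared litter or sort. Whether the numbers pair the libraries is thus not known. The block moved the calls over all miRNAs to 67 higher and 162 lower.

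Signs turned for miR-130a-3p (0.13 with quantile normalization and 0.031 with totals without the 5 most abundant), for miR-301b-3p (-1.72 to 0.57 with each library left out, highest without motoneuron replicate 2), for miR-148b-3p (0.42 with quantile normalization and 0.0898 with those totals), and for the change of the arm ratio of mir-301a (-0.40 to 0.44 with each library left out, below 0 without motoneuron replicate 2 or GFP-negative replicate 1) and mir-301b (-0.10 to 2.21, below 0 without motoneuron replicate 2). At E12.5, 1 member was higher in motoneurons over V2a with only all-zero rows removed, and 0 were lower in motoneurons over V3 with a pseudocount of 10. In V2a over V3, 0 members were higher and 1 was lower with median-of-ratios and with TMM factors, and 1 was lower with only all-zero rows removed. Of the 80 alternative values of the E10.5 fold changes of the members, 70 kept direction and side of the threshold, 7 newly passed it and 3 turned.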
